A study of Mus musculus with 72 samples.

Results

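The genes described are those of the cytosolic ribosomal proteins, the protein part of the ribosomes that translate nuclear-encoded mRNA. They were chosen by gene symbol and biotype, as protein-coding genes named Rpl or Rps with a number, or Rplp0, Rplp1, Rplp2 or Rpsa, whose mean level over all libraries reached 1 CPM, the count of a gene scaled to a common library size. This gave 74 genes of the 55573 in the count table, with 42 genes of the large subunit, 3 of the stalk that is built on the large subunit and 29 of the small subunit. A further 9 protein-coding genes with fitting symbols lay below the minimum, and 6 genes with fitting symbols were annotated as pseudogenes. Members just inside the minimum included Rpl28 and Rps27 at 1.38 and 1.48 CPM, and the genes just outside were Rps10, Rps6 and Rpl19 at 0.886, 0.833 and 0.704 CPM.

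Livers came from adult male mice, C57BL/6 in the labels and C57BL/6J in the study's methods, carrying floxed Bmal1 alleles. Mice with the floxed alleles alone were the WT group (Bmal1 fl/fl), and mice that also carried Cre recombinase under the albumin promoter, which is active in hepatocytes, were the LKO group (Bmal1 fl/fl Albumin-Cre). BMAL1 is the obligate partner of CLOCK in the circadian clock. Both genotypes were kept either with a specific-pathogen-free microbiota (SPF) or germ-free (GF) in isolators, so the isolator colony and the absence of microbes cannot be told apart. Livers were collected at zeitgeber times (ZT, hours after lights on) 2, 6, 10, 14, 18 and 22, from 3 mice in each group and ZT, giving 18 libraries in each of the 4 groups and 72 in all.

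Each ribosome contains 1 copy of nearly every ribosomal protein, so cells make these proteins in closely matched amounts. Their mRNAs are among the most abundant in growing cells, and in vertebrates they begin with a C followed by a run of pyrimidines, the 5′ terminal oligopyrimidine (TOP) motif, through which the kinase complex mTORC1 and the RNA-binding protein LARP1 set how actively they are translated. In liver the production of ribosomes is known to follow feeding and the time of day. These experiments measured the amount of mRNA and not its translation.

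Pyrimidine runs like that of the TOP motif were looked for near the annotated starts. RefSeq starts (GRCm38.p6) were at hand for 55 of the 74 members. A run of at least 5 pyrimidines beginning with C, within the 5 bases before and the 20 bases after the start, was present for 34 of these 55 members (61.8%) and for 33.6% of all 27025 genes with a start. A longer run of at least 8 was present for 21 members (38.2%) and for 7.71% of all genes. The windows below are 30 bases, of which 10 lie before the start, and capitals mark the longest such run. They show such a run in 8 members described in the comparisons, Rpl27a with the longest run. The search did not require a run to begin at the start, so a run is not shown to be a TOP motif. In Rps12, Rps26, Rpl22l1 and Rpl13a it begins after the annotated start. The other 4 members have no such run in the searched bases. These are Rpl10a, which was lower in GF mice, Rpl4, and Rpl27 and Rpl37a, which led the rhythm calls. Of all the printed windows, only those of Rpl31 and Rpl10a hold the gene start in GENCODE. For Rpl4, Rpl27 and Rpl37a these starts are at 64173375, 101442298 and 72711290. In Rpl10a a run of C lies mostly before the searched bases, and in Rpl4 a run of pyrimidines does. Absence of a run thus holds for these starts and bases only. The choice shows what such runs look like and not how often they occur.
Rpl27a, chr7:109519185-109519214, plus strand: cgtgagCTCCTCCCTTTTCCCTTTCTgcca
Rpl15, chr14:18270967-18270996, minus strand: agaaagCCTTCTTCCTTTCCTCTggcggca
Rpl13a, chr7:45128726-45128755, minus strand: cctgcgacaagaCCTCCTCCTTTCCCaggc
Rps12, chr10:23787190-23787219, minus strand: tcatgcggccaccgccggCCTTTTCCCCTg
Rplp2, chr7:141447641-141447670, plus strand: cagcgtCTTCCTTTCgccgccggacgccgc
Rpl22l1, chr3:28805498-28805527, plus strand: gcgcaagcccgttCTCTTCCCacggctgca
Rps26, chr10:128626487-128626516, minus strand: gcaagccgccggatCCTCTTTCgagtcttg
Rpl31, chr1:39367841-39367870, plus strand: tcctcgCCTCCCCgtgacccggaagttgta
Rpl10a, chr17:28328461-28328490, plus strand: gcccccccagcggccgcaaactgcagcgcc
Rpl4, chr9:64173377-64173406, plus strand: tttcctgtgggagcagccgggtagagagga
Rpl27, chr11:101442235-101442264, plus strand: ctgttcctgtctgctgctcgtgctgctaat
Rpl37a, chr1:72711250-72711279, plus strand: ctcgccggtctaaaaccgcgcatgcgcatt

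In promoters of 300 bases, of which 250 lay before the start, TTCCGG on either strand, the core of sites for factors of the ETS family, was present for 31 of the 55 members (56.4%) and for 16.7% of all genes. The same letters were present for 40 of 69 genes of mitochondrial ribosomal proteins (58%). CACGTG, the E-box that CLOCK and BMAL1 bind, was present for 5 members (9.09%), Rpl13a, Rpl14, Rpl23, Rpl34 and Rps19, and for 8.09% of all genes. TTCCGG can overlap the pyrimidine run where it lies across the start. The members with a run of at least 8 and those without had, in the comparisons that follow, median log2 differences of 0.18 and 0.12 for genotype in SPF mice, 0.26 and 0.27 for genotype in GF mice, 0.28 and 0.25 for GF against SPF in WT mice, and 0.33 and 0.39 for GF against SPF in LKO mice. These are descriptions of the annotated starts, and no binding was measured.

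Counted levels differed widely between members. Mean CPM reached 669 for Rpl4, around a median of 33.7. Per kilobase of exon (RPKM), the highest levels were those of Rpl4 (333), Rpl8 (246) and Rplp1 (226). Ribosomal protein genes have many processed pseudogenes, and reads that aligned to several places were left out of the counts, so the share of 50-base words of each mRNA that also occurs in transcripts of other annotated genes was computed. It was 2.96% for Rps3 and 98.6% for Rps27, with a median of 56.5%. The 29 members with under 50% of their words shared had a median of 44.9 RPKM, the 45 members with 50% or more had 7.03, and the 15 members with 80% or more had 2.31. Across the 74 genes, which are not independent replicates, Spearman's rho between the share and the RPKM was -0.49. Since shared reads were not counted, the true level of such members can be higher than the counted one, and no test was made between members. The counting did not use the strand, and 8 members had 20% or more of their exon bases under another gene, Rpl35 (66.2%), Rpl13a (35.4%), Rpl5 (26.7%) and Rpl31 (25.3%) among them.

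**Figure D1:**
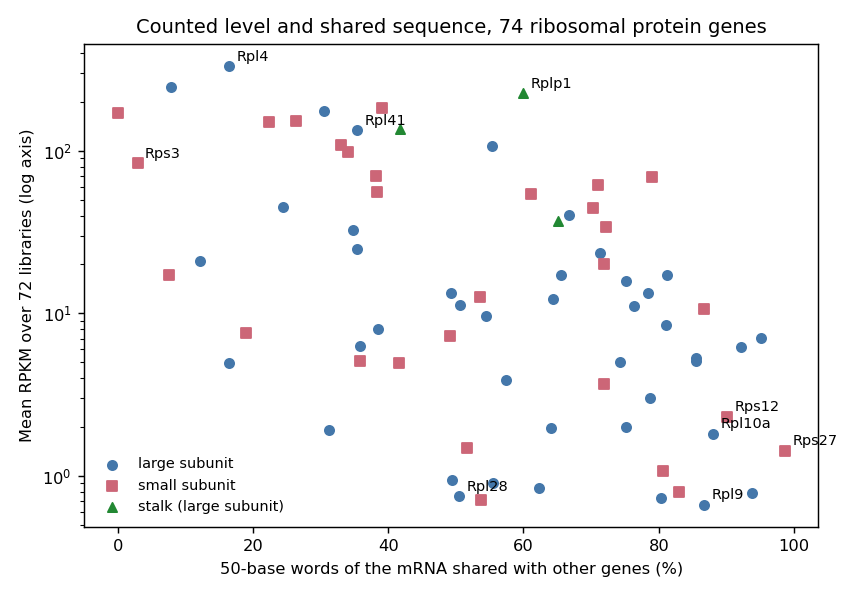
Each point is a ribosomal protein gene, with the percentage of its mRNA's 50-base words that occur in other genes on the horizontal axis and its mean RPKM over 72 libraries on a logarithmic vertical axis. Members with little shared sequence, such as Rps3 and Rpl4, sit at the top left, and most of those with over 80% shared, such as Rps27, Rpl9 and Rpl10a, sit below 10 RPKM.

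Libraries held between 17369927 and 22076113 counts, of which the 74 members took 0.386% to 0.741%. Bmal1 is listed as Arntl, and its level over the whole gene does not check the deletion, since the other exons are still transcribed. Npas2, a paralog of Clock that rises when BMAL1 is lost, served in its place, with 0 to 9.89 CPM in SPF WT, 0 to 13 CPM in GF WT and 16.8 to 44.4 CPM in GF LKO libraries. In SPF LKO 16 libraries had 14.4 to 36.4 CPM, whereas the libraries labelled ZT14 replicate 2 and ZT18 replicate 1 had 0.221 and 1.83 CPM. The libraries labelled SPF WT ZT14 replicate 3 and GF WT ZT6 replicate 3 had clock genes of another time of day. All 4 were kept, and results are given without them where they changed. Alb, the albumin mRNA and the most abundant in every library, took a median of 8.71% of counts in SPF WT, 4.05% in SPF LKO, 9.39% in GF WT and 3.27% in GF LKO, so levels were scaled by TMM, a method meant to be insensitive to a few dominant genes. In whole liver, more of an mRNA per cell and more cells of a type that holds it cannot be told apart.

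The summed level of the 74 members was lowest in SPF WT and highest in GF LKO livers. In SPF WT the sum ran from 3546 to 5495 CPM with a median of 4044, and in SPF LKO from 3550 to 5843 with a median of 4606. In GF WT it ran from 4518 to 6628 with a median of 5276, and in GF LKO from 5017 to 7249 with a median of 6176. Every pair of neighbouring groups in this order overlapped. As a plain share of counts the medians were 0.422% in SPF WT, 0.525% in SPF LKO, 0.470% in GF WT and 0.611% in GF LKO. The order of SPF LKO and GF WT thus depended on the scaling. The lowest GF LKO library lay above the medians of both SPF groups. No test was made on the sum.

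**Figure D2:**
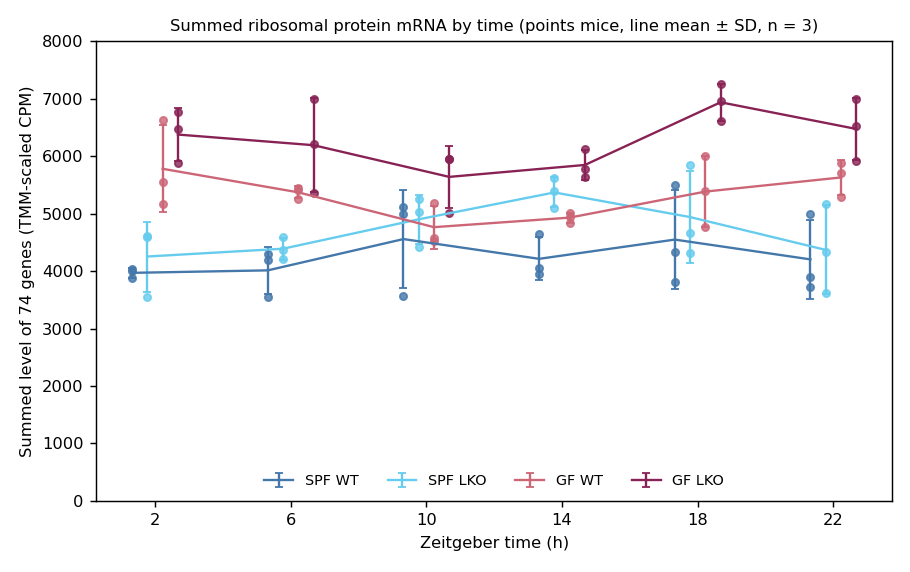
Points are the summed TMM-scaled CPM of the 74 genes in each mouse against zeitgeber time in hours, and lines with bars are the mean ± SD of 3 mice for each of the 4 groups. The GF LKO mean is the highest at every ZT, and the SPF WT mean is the lowest at every ZT.

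The first question was how loss of Bmal1 in hepatocytes changed these mRNAs in mice with microbes. In SPF livers 23 of the 74 members were higher in LKO than in WT and 0 were lower, at a Benjamini-Hochberg adjusted p under 0.05 from edgeR (quasi-likelihood), and 73 of 74 differences were positive. Of all 13159 genes tested 23.1% were called, 11.6% higher and 11.5% lower. The median log2 difference of the members was 0.14, a fold of 1.10, beside -0.01 for all genes. Large subunit genes gave 15 of 42, the stalk 2 of 3 and small subunit genes 6 of 29. Among the 29 members with under 50% of words shared, 8 were higher, and among the other 45 members 15 were.

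The 3 members with the smallest p were Rps12, Rpl31 and Rpl22l1. Rps12 (chr10:23785183-23787275, minus strand), a small subunit protein that also acts as a sensor in cell competition in flies, had 2.4, 3.17 and 4.44 CPM as lowest, median and highest in SPF WT, and 3.5, 5.31 and 6.73 CPM in SPF LKO libraries. The groups overlapped at their edges, and the log2 difference was 0.66 ± 0.10 (SE, n = 18 per group), with edgeR's adjusted p of 2.22e-06. Rpl31 (chr1:39367842-39371911, plus strand), near the exit of the peptide tunnel, had 1.45, 2.19 and 3.20 CPM in SPF WT and 2.42, 3.36 and 4.64 CPM in SPF LKO, a log2 difference of 0.60 ± 0.10 with edgeR's adjusted p of 1.48e-05. Rpl22l1 (chr3:28805436-28807424, plus strand), the paralog that can take the place of Rpl22, had 15.6, 21.4 and 32.1 CPM in SPF WT and 20.3, 29 and 48.3 CPM in SPF LKO, a log2 difference of 0.49 ± 0.09 with edgeR's adjusted p of 1.49e-04. These 3 were the members called in all 19 alternative fits, and each has over 60% of its words shared with other genes, 90.1% for Rps12, 75.1% for Rpl31 and 65.6% for Rpl22l1.

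Other members were smaller in their difference. Rps26 and Rpl8, chosen after their values were seen, and Rpl3, which helps shape the peptidyl transferase centre, were higher by 0.28 ± 0.07, 0.19 ± 0.05 and 0.28 ± 0.08 on the log2 scale, with edgeR's adjusted p of 0.0034, 0.00758 and 0.0079. In the stalk, which recruits elongation factors, Rplp2 was higher by 0.32 ± 0.09 and Rplp1 by 0.23 ± 0.08, with edgeR's adjusted p of 0.00898 and 0.0322, while Rplp0 had a difference of 0.14 ± 0.05 and an adjusted p of 0.0558 by edgeR. The call of Rplp2 was lost without ZT2 or ZT10, that of Rplp1 without ZT2, ZT6 or ZT14 and that of Rpl8 without ZT10. Rps3, Rps14 and Rpl41 had differences of 0.06 ± 0.07, 0.05 ± 0.10 and 0.01 ± 0.08, within their error. Rpl22, which Rpl22l1 can replace, had 0.14 ± 0.08 with edgeR's adjusted p of 0.188. Rps27l, the paralog of Rps27 that is induced by p53, was the member with a negative difference, -0.16 ± 0.08 with edgeR's adjusted p of 0.179, and it was called lower without the 4 libraries that stand apart, at -0.23 and an adjusted p of 0.0285 by edgeR.

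The count of 23 depended on the time points. Without ZT6 it was 14, without ZT10 13 and without ZT14 10. Without replicate numbers 1, 2 and 3 it was 15, 11 and 4. Of all genes 1527 were higher in the main fit, and 1119, 1111 and 1545 without ZT6, ZT10 and ZT14. Without replicate numbers 1, 2 and 3 the counts over all genes were 878, 1102 and 838. Of the 23 members, 6 were called in all 6 fits that left out a ZT. The median difference of the members was 0.37 at ZT14, 0.17 at ZT6, 0.13 at ZT18, 0.11 at ZT10, 0.06 at ZT2 and 0.05 at ZT22. With both SPF LKO libraries of WT-like clock genes left out, 20 members were higher, and 1837 of all genes, beside 1527 in the main fit.

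In GF livers the loss of Bmal1 was accompanied by higher levels of most members. Here 58 of 74 were higher in LKO, 1 was lower and 15 were not called, where 30.8% of 12662 genes tested were called, 15.6% higher and 15.2% lower. The median log2 difference was 0.26, a fold of 1.20, beside 0.01 for all genes. Large subunit genes gave 34 of 42, small subunit genes 22 of 29 and the stalk 2 of 3. Of the 29 members with mostly unique sequence 24 were higher, and of the others 34 of 45. Of the 58 members, 39 were called in all 6 fits that left out a ZT, and 26 in all 3 that left out a replicate number. Without numbers 1, 2 and 3 the counts of members higher were 59, 29 and 37. Over all genes they were 1483, 1290 and 1440, beside 1970 in the main fit.

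Rps12 had 2.75, 3.69 and 4.53 CPM in GF WT and 4.69, 6.10 and 8.21 CPM in GF LKO, so that the groups did not overlap, and its log2 difference was 0.77 ± 0.07 with edgeR's adjusted p of 7.21e-11. Rpl31 had 1.96, 2.74 and 3.69 CPM in GF WT and 3.37, 4.48 and 7.65 CPM in GF LKO, a log2 difference of 0.80 ± 0.10 with edgeR's adjusted p of 4.36e-08. Rpl22l1 had 19.8, 34.6 and 49 CPM against 41.3, 49.2 and 73 CPM, a log2 difference of 0.55 ± 0.08 with edgeR's adjusted p of 3.37e-07. The same 3 members thus had the smallest p in both microbial states, in separate mice. Among abundant members with little shared sequence, Rpl4 had 545, 652 and 815 CPM in GF WT and 663, 818 and 944 CPM in GF LKO, a log2 difference of 0.30 ± 0.05 with edgeR's adjusted p of 8.23e-06. Rps3 had 321, 397 and 533 CPM against 351, 454 and 555 CPM, a smaller difference of 0.21 ± 0.06 with edgeR's adjusted p of 0.00522.

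Members with functions outside the ribosome were measured alongside. Rpl5 and Rpl11 form with 5S rRNA the particle that binds MDM2 and stabilizes p53. Rpl5 was higher by 0.46 ± 0.10 in GF LKO, with edgeR's adjusted p of 4.10e-04, and Rpl11 by 0.28 ± 0.10 with an adjusted p of 0.0295 by edgeR, which was lost without ZT2, ZT10, ZT18 or ZT22. Rpl13a, which can leave the ribosome to silence inflammatory mRNAs, was higher by 0.47 ± 0.09, with edgeR's adjusted p of 3.07e-05. Rpsa, also known as a laminin receptor, was higher by 0.29 ± 0.09 with edgeR's adjusted p of 0.0178, which rose to 0.0801 without ZT18. Rps27l was the lower member, at 124, 134 and 182 CPM in GF WT and 101, 119 and 143 CPM in GF LKO, a log2 difference of -0.20 ± 0.05 with edgeR's adjusted p of 0.00174. On total counts its difference was -0.03 and was not called.

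The genotype effects were set side by side for the 2 microbial states, which share no mice. All 74 had the same sign in SPF and GF mice, and Pearson's r across the 74 genes was 0.83. In both states 21 members were higher, 91.3% of those called in SPF and 36.2% of those called in GF mice. The overlap was not counted over all genes, so it is not shown to be particular to the members. The difference of the 2 genotype effects was tested itself on all 72 libraries, and 0 of 74 members were called by edgeR, where 0.438% of 13484 genes were. At an unadjusted p under 0.05 by edgeR there were 3 of the 74 members and 876 of the 13484 genes, a smaller share for the members. The 3 were Rpl5 with a GF effect larger by 0.39 ± 0.15, Rplp0 with 0.16 ± 0.08 and Rpl13a with 0.23 ± 0.11. DESeq2 called 0 of the members as well. The difference was positive for 66 of the 74 members, with a median of 0.11 and a range from -0.13 to 0.39. The larger number of members called in GF mice was therefore not shown to be a larger effect for any single member.

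**Figure D3:**
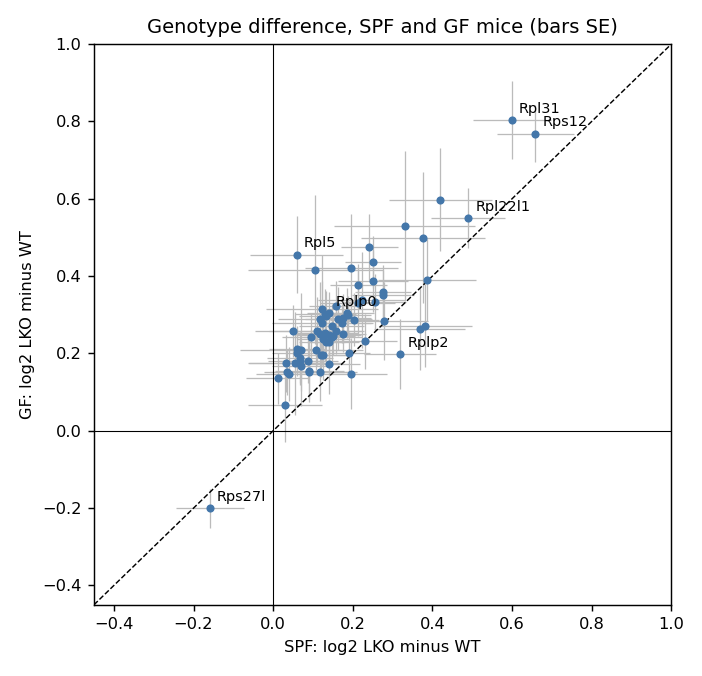
Each point is a ribosomal protein gene, with its log2 difference between LKO and WT in SPF mice on the horizontal axis and in GF mice on the vertical axis, bars giving the SE and the dashed line equality. Most points lie above the line, Rps12, Rpl31 and Rpl22l1 lie far from the origin on both axes, and Rps27l is below 0 on both.

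The second question was how the absence of microbes changed these mRNAs. In WT livers 51 of 74 members were higher in GF than in SPF mice and 4 were lower, where 31.8% of 12776 genes tested were called, 14.2% higher and 17.7% lower. The median log2 difference was 0.28, a fold of 1.21, beside -0.02 for all genes. On total counts the split was 25 higher and 7 lower. All 3 stalk genes, 26 of 42 large subunit genes and 22 of 29 small subunit genes were higher. Of the 29 members with mostly unique sequence 25 were higher and 0 lower, and of the others 26 were higher and 4 lower.

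Stalk genes had the smallest p. Rplp1 had 61.2, 77 and 114 CPM in SPF WT and 102, 125 and 174 CPM in GF WT, groups that overlapped little, and a log2 difference of 0.58 ± 0.08 with edgeR's adjusted p of 9.61e-07. Rplp0, which anchors the stalk, had 156, 181 and 218 CPM against 189, 238 and 296 CPM, a log2 difference of 0.38 ± 0.05 with edgeR's adjusted p of 1.77e-06. Rpl22l1 followed with 0.58 ± 0.09 and edgeR's adjusted p of 4.24e-06. Among small subunit genes Rps26, which contacts mRNA near the exit channel, was higher by 0.41 ± 0.06 and Rps19, whose human counterpart is mutated in Diamond-Blackfan anaemia, by 0.29 ± 0.06, with edgeR's adjusted p of 1.05e-05 and 6.81e-04. Rpl10, Rps27 and Rpl13a had differences of -0.003 ± 0.06, 0.00 ± 0.13 and 0.04 ± 0.08 and were not called. Rps12, which led the genotype comparisons, had a difference of 0.13 ± 0.08 with edgeR's adjusted p of 0.205.

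In LKO livers 60 of 74 members were higher in GF mice and 2 were lower, where 36.4% of 13010 genes tested were called, 18.1% higher and 18.4% lower. The median log2 difference was 0.36, a fold of 1.28, beside -0.02 for all genes. Rplp0 had 153, 202 and 236 CPM in SPF LKO and 222, 295 and 354 CPM in GF LKO, with only the edges overlapping, a log2 difference of 0.56 ± 0.06 and edgeR's adjusted p of 1.65e-09. Rpl15 had 27.8, 33.2 and 40.9 CPM against 38.7, 45.3 and 57.8 CPM, a log2 difference of 0.47 ± 0.06 with edgeR's adjusted p of 1.13e-07. Rplp1 had 71, 97.4 and 128 CPM against 105, 144 and 185 CPM, a log2 difference of 0.59 ± 0.07 with edgeR's adjusted p of 1.42e-07. Rpl4, Rps3 and Rpl41, of low shared sequence, were higher by 0.37 ± 0.06, 0.44 ± 0.07 and 0.43 ± 0.07, with edgeR's adjusted p of 5.46e-06, 7.46e-06 and 9.73e-06.

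The comparisons in WT and in LKO mice used separate libraries. All 51 members higher in WT were also higher in LKO mice, where they made up 85% of the 60. The signs were the same for 72 of 74, and Pearson's r across the 74 genes was 0.96. These values were not computed over all genes, so the likeness is not shown to be particular to the members. The increases in GF mice were called without each ZT in turn for 41 of 51 members in WT and 50 of 60 in LKO mice.

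Further members of known role are given here. Rpl23, which like Rpl5 and Rpl11 binds MDM2, had medians of 43.8 CPM in SPF WT, 52.8 in SPF LKO, 59.1 in GF WT and 71 in GF LKO, with log2 differences of 0.28 ± 0.05 for genotype in GF mice and 0.33 ± 0.06 and 0.44 ± 0.07 for GF against SPF in WT and LKO mice, called in each, and 0.17 ± 0.08 for genotype in SPF mice, not called. Rpl39, at the exit of the peptide tunnel, was higher in GF mice of both genotypes, by 0.33 ± 0.09 and 0.30 ± 0.09, and had 0.19 ± 0.09 and 0.15 ± 0.09 for genotype, not called. Rps27a, made as a fusion with ubiquitin, was higher in GF LKO against GF WT by 0.29 ± 0.08 and against SPF LKO by 0.24 ± 0.08, and had 0.10 ± 0.08 for GF against SPF in WT mice and 0.16 ± 0.08 for genotype in SPF mice, not called.

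**Figure D4:**
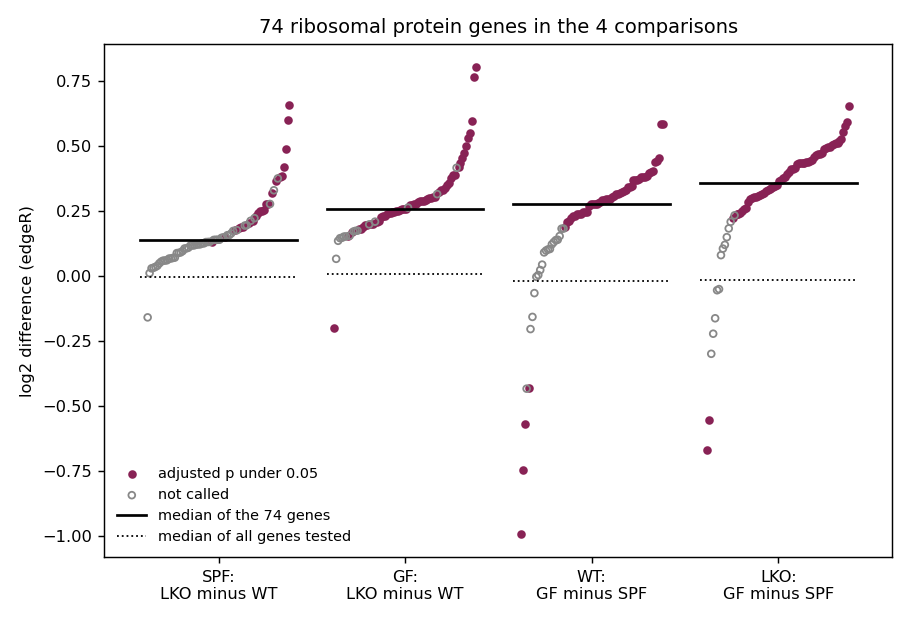
Points are the log2 differences of the 74 genes in each of the 4 comparisons, sorted within each, filled where edgeR's adjusted p was under 0.05. The solid lines mark the medians of the members, from 0.14 to 0.36, and the dotted lines those of all genes tested, which lie near 0.

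The members that were lower in GF livers all had mostly shared sequence. In WT mice these were Rpl10a, Rpl9, Rpl5 and Rps13, described for their direction after the values were seen. Rpl10a, a large subunit protein reported to mark a subset of ribosomes, had 2.6, 4.5 and 6.02 CPM in SPF WT and 1.19, 2.71 and 3.92 CPM in GF WT, a log2 difference of -0.75 ± 0.12 with edgeR's adjusted p of 2.35e-05. Rpl9 had 0.869, 2.30 and 3.89 CPM against 0.287, 1.23 and 2.52 CPM, a log2 difference of -0.99 ± 0.20 with edgeR's adjusted p of 2.54e-04. Rpl5 had 2.18, 3.22 and 4.90 CPM against 1.13, 2.29 and 3.17 CPM, a log2 difference of -0.57 ± 0.12 with edgeR's adjusted p of 4.65e-04. Rps13 had a log2 difference of -0.43 ± 0.13 with edgeR's adjusted p of 0.00935, which rose to 0.0828 without ZT22. In LKO mice Rpl10a (-0.55 ± 0.14) and Rpl9 (-0.67 ± 0.16) were called again, and Rpl5 (-0.16 ± 0.10) and Rps13 (-0.30 ± 0.12) were not. The shares of words these 4 members have in common with other genes are 88.1%, 86.7%, 93.8% and 83.0%. The part of shared sequence in these differences was not tested. Of the 29 members with under 50% of words shared, 0 were lower in GF mice of either genotype.

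Across the 4 comparisons 15 members were higher in all of them, among them Rpl3, Rpl4, Rpl6, Rpl7a, Rpl8, Rpl14, Rpl22l1, Rpl27a, Rpl31, Rplp1, Rps2, Rps7, Rps9 and Rps26. In 3 comparisons 31 members were higher, in 2 comparisons 16 and in 1 comparison 7. Those higher in none included Rpl9, Rps13, Rps27 and Rps27l. The comparisons share groups, so these counts are not independent of each other. They were not made over all genes, so the recurrence is not shown to be particular to the members. Rps27l has 22.4% of its words shared.

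Among the paralogs, Rpl22l1 was higher in all 4 comparisons, and its highest level was in GF LKO livers, as given above. Rpl7l1, which takes part in the making of the large subunit, was higher in LKO than in WT under GF conditions (0.18 ± 0.06, edgeR's adjusted p 0.0142, lost without ZT2 or ZT14) and in GF than in SPF mice of the LKO genotype (0.22 ± 0.07, edgeR's adjusted p 0.00823). Rpl3l of striated muscle and the germ cell paralogs Rpl10l and Rpl39l were below the minimum, at 0.0487, 0.00292 and 0.0197 CPM.

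The time of day was examined next, since liver mRNA was collected around the clock. The time of each member's highest mean was counted in each group, as a description. In SPF WT 37 of the 74 had their highest mean at ZT10 and 19 at ZT18. In SPF LKO 57 had it at ZT14, in GF WT 34 at ZT2 and 17 at ZT22, and in GF LKO 50 at ZT18. The median profile spanned -0.09 to 0.12 on the log2 scale in SPF WT, -0.16 to 0.21 in SPF LKO, -0.13 to 0.11 in GF WT and -0.13 to 0.16 in GF LKO. Because the members rise and fall together within single livers, these peaks are not 74 independent observations.

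**Figure D5:**
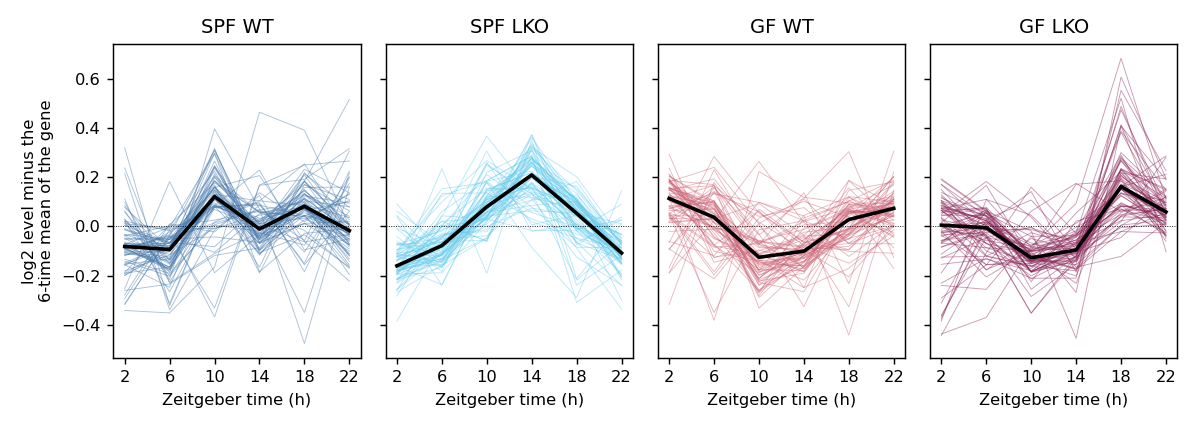
Thin lines are the 74 genes and the thick line their median, as the log2 mean level of 3 mice at each zeitgeber time minus the mean of the gene's 6 times, in each of the 4 groups. The median peaks at ZT10 in SPF WT, ZT14 in SPF LKO, ZT2 in GF WT and ZT18 in GF LKO.

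A 24 h cosine was fitted to each gene in each group. In SPF WT 2 of 74 members were called rhythmic at an adjusted p under 0.05 by edgeR, where 15% of 13907 genes were. These were Rpl27, with a log2 amplitude of 0.54 and a peak at ZT16.4, and Rps2, with 0.31 and ZT19.8. Rpl27 had 1.76 ± 0.32 CPM at ZT2 and 3.46 ± 1.57 CPM at ZT14 (SD, n = 3). In SPF LKO 19 members were called, where 21.2% of 14028 genes were, with amplitudes from 0.15 to 0.34 and all peaks between ZT12.3 and ZT15.4. Rpl7l1 and Rpl35a had the smallest p. Rpl7l1 had 59.3 ± 2.19 CPM at ZT6 and 85.2 ± 10.4 CPM at ZT14. In GF WT 18 members were called, where 26.7% of genes were, all with peaks between ZT21 and ZT6, led by Rpl37a (ZT0.252) and Rpl22 (ZT4.79). Rpl37a had 14.1 ± 0.914 CPM at ZT22 and 10.1 ± 1.58 CPM at ZT14. In GF LKO 17 members were called, where 35% of genes were, 12 of them with peaks between ZT16 and ZT21, led by Rpl27 (ZT17.2) and Rps26 (ZT19.0). Rpl27 rose to 6.08 ± 0.422 CPM at ZT18 from 2.53 ± 0.647 CPM at ZT2. The share of members called was thus below that of all genes in SPF WT and GF LKO and near it in the other groups.

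No member was called rhythmic in all 4 groups, and Rpl27 and Rps2 were called in both SPF WT and GF LKO. The calls depended on the fit. With the 6 ZT as separate levels 1 member was called in SPF WT, 0 in SPF LKO, 0 in GF WT and 12 in GF LKO, and leaving out a replicate number left 0 to 1, 0 to 4, 0 to 9 and 2 to 8. Rpl27 in GF LKO and Rps26 in GF LKO were called in all of these fits.

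The difference of rhythm between groups was tested itself. Between SPF LKO and SPF WT, between GF LKO and GF WT and between GF WT and SPF WT, 0 of 74 members had a changed rhythm by edgeR, where 1.02%, 5.81% and 0.0355% of genes did. At an unadjusted p under 0.05 there were 4, 7 and 26 members, and the same count over all genes is not given here. With limma 0, 1 and 0 members were called. Between GF LKO and SPF LKO 13 members had a changed rhythm, where 4.45% of genes did. The smallest p was that of Rpl13a, with edgeR's adjusted p of 0.0114, which had 7.15 ± 0.60 CPM at ZT2 and 9.57 ± 0.885 CPM at ZT14 in SPF LKO (SD, n = 3), and 11.2 ± 2.12 CPM at ZT2 and 9.11 ± 0.481 CPM at ZT14 in GF LKO. The count was 7 without the libraries that stand apart, 3 on total counts, and 0 with the ZT as separate levels or without any of the 3 replicate numbers.

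The members varied together across livers. Over the 72 libraries the median of Pearson's r between pairs of members was 0.64, and 91.0% of pairs were positive. After the mean of each group and ZT was removed, which leaves differences between mice of the same group and time, the median was 0.48. For the 29 members with mostly unique sequence the medians were 0.80 and 0.66. For comparison, 31 proteasome subunits had 0.56 and 0.52, and 77 mitochondrial ribosomal proteins 0.49 and 0.44. All of these share library and depth, and they are given as a description. Rps7 and Rps24 followed the mean of the other members most closely, each with r of 0.95, and Rpl9, Rps13 and Rpl5 least, with -0.14, -0.10 and -0.07.

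Genes whose products work with the ribosome were examined from the lists of known factors. Of 5 cytosolic elongation factors with TOP mRNAs, 3 were higher in SPF LKO, 4 in GF LKO, 3 in GF WT and 5 in GF LKO against SPF LKO. Their medians were 0.19, 0.25, 0.15 and 0.22. Of all genes tested in these comparisons 11.6%, 15.6%, 14.2% and 18.1% were higher and 11.5%, 15.2%, 17.7% and 18.4% lower. A list of 14 translation elongation factors had 4, 5, 5 and 6 higher and 1 lower in each comparison, with medians of 0.09, 0.10, 0.14 and 0.12. Eef1a1, which brings aminoacyl-tRNA to the ribosome, was higher by 0.19, 0.28, 0.15 and 0.26 in these comparisons, with edgeR's adjusted p of 0.0115, 8.56e-07, 0.0154 and 9.69e-05. Of 12 other known TOP mRNAs 4, 5, 5 and 5 were higher and 0, 0, 1 and 1 lower. Gas5, a non-coding TOP RNA, was higher by 0.43 in SPF LKO and 0.58 in GF LKO, with edgeR's adjusted p of 3.72e-04 and 2.10e-10. Rack1, a small subunit protein outside the symbol rule, was higher by 0.30 in GF LKO against GF WT, 0.26 in GF WT and 0.42 in GF LKO against SPF LKO, and had 0.16 in SPF LKO with edgeR's adjusted p of 0.0614.

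The machinery that builds ribosomes was read in the same way, in the order genotype in SPF mice, genotype in GF mice, GF against SPF in WT mice and in LKO mice, where 11.6%, 15.6%, 14.2% and 18.1% of all genes tested were higher and 11.5%, 15.2%, 17.7% and 18.4% lower. Of 65 ribosome biogenesis factors 12, 6, 12 and 10 were higher and 1, 4, 0 and 4 lower, with medians of 0.09, 0.05, 0.12 and 0.10. Of 21 RNA polymerase I subunits and factors, which transcribe rRNA, 0, 2, 7 and 6 were higher and 0, 1, 2 and 2 lower. Of 34 genes of the mTORC1 pathway and its TOP regulators 6, 6, 11 and 11 were higher and 2, 5, 3 and 4 lower, with medians of -0.02, -0.02, 0.09 and 0.09, and Sesn3, an inhibitor of mTORC1, was higher by 0.39 and 0.55 in LKO livers of SPF and GF mice. Of 9 genes of MYC and its partners 2, 1, 0 and 0 were higher and 1, 2, 1 and 1 lower, with medians of -0.01, 0.04, -0.04 and 0.00, and Myc, a driver of ribosome production, was higher by 1.47 in SPF LKO with edgeR's adjusted p of 0.0071. Of 11 carriers and chaperones of free ribosomal proteins 2, 2, 3 and 4 were higher and 0, 0, 2 and 1 lower. Tsr2, the carrier of Rps26, was higher by 0.20 and 0.27 in LKO livers of SPF and GF mice and by 0.21 in GF LKO against SPF LKO. Of 41 initiation factors 6, 12, 16 and 26 were higher and 2, 2, 1 and 1 lower.

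Other abundant groups of small housekeeping genes set these values in context. Of all genes tested 11.6% and 15.6% were higher and 11.5% and 15.2% lower for genotype in SPF and GF mice. For microbial status in WT and LKO mice 14.2% and 18.1% were higher and 17.7% and 18.4% lower. Mitochondrial ribosomal proteins had medians of 0.05 and 0.04 in the genotype comparisons, with 6 and 11 of 77 higher, and 0.18 and 0.19 in the microbial comparisons, with 48 and 51 of 77 higher. Respiratory chain and ATP synthase subunits, a list added after the values were seen, had medians of -0.09 and -0.12 for genotype, with 1 and 3 of 77 higher and 1 and 33 lower, and 0.29 and 0.26 for microbial status, with 68 of 77 and 66 of 76 higher. Of 31 proteasome subunits 1 and 0 were higher and 5 and 6 lower for genotype, and 12 and 18 were higher for microbial status.

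Markers of cell types were read beside the members. The summed level of 10 hepatocyte markers, Alb among them, was 95274 to 149981 CPM in SPF WT, 55108 to 141567 in SPF LKO, 132542 to 187357 in GF WT and 69543 to 96649 in GF LKO. Alb alone reached 102288 CPM in SPF LKO, and 49900 CPM without the libraries labelled ZT14 replicate 2 and ZT18 replicate 1. In SPF LKO 1 hepatocyte marker was higher and 1 lower, in GF LKO 3 and 3, and in GF against SPF mice 8 and 0 in WT and 6 and 1 in LKO. Of 10 Kupffer cell markers 6 were lower in SPF LKO and 5 in GF LKO, and summed ranges of 285 to 733 CPM in SPF WT and 193 to 404 CPM in GF LKO overlapped. Of all genes tested 11.6% and 15.6% were higher and 11.5% and 15.2% lower in LKO livers of SPF and GF mice. In GF against SPF mice 14.2% and 18.1% were higher and 17.7% and 18.4% lower in WT and LKO livers. Bile duct markers summed to 33.3 to 98.8 CPM in SPF WT, 31.2 to 136 in SPF LKO, 27.4 to 57.7 in GF WT and 45.1 to 162 in GF LKO, with Sox9 higher in LKO livers of both states. Lymphocyte, granulocyte and dividing cell markers summed to at most 55.5, 20.9 and 23.3 CPM in any library. Erythroid, sinusoidal endothelial and stellate cell markers overlapped in range between all 4 groups. No marker list had a gene at 0 in all 72 libraries, and the part of cell composition in the members' differences was not tested.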

How the data were processed

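Liver RNA was made into stranded mRNA libraries and sequenced as single-end reads of 50 bases. The values the authors deposited are raw counts of reads per gene, made with STAR 2.6.1b on mm10 and featureCounts 2.0.0 per the labels, on exons of Ensembl release 97, without strand and without reads of several places or genes. All 72 libraries were used, with 17369927 to 22076113 counts each, and 0 columns were left unused. p-values rest on the spread between libraries, with 18 mice in each group. Comparisons of level pooled all ZT with no term for ZT, so this spread mixes differences between mice with differences between times of day. With ZT as a covariate, 26 members were higher and 0 lower for genotype in SPF mice, and 61 and 1 in GF mice. For microbial status the counts were 50 and 4 in WT mice, and 60 and 3 in LKO mice. The counts of each pair of groups were fitted with edgeR 4.0.16 (R 4.3.3, TMM, filter on low counts, quasi-likelihood test, Benjamini-Hochberg adjustment over all genes at 0.05), and rhythms with a 24 h cosine and sine. DESeq2 1.42.0 and limma 3.58.1 served as alternatives, with other scalings, filters, blocks and left-out libraries. CPM values are TMM-scaled, and RPKM and the choice of members use plain CPM. The fits were tested on simulated data. The members and gene lists were chosen with earlier results of these data known. Values are given for a set of members with known roles, the 3 with the smallest p in each comparison, the 2 in each group and 1 in each pair of groups with the smallest p for a rhythm, and, in other lists, the 2 with the smallest p. Other members are named as chosen after their values were seen. Names and positions came from GENCODE vM21, starts from RefSeq on GRCm38.p6. Some members are counted but not named, and their values are not reported here.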

Additional observations from a re-analysis of the deposited data

Results flagged for a closer look

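The rhythm of 13 members differed between GF LKO and SPF LKO livers, by a test of the difference of the cosine and sine terms in edgeR with adjustment over all genes. The adjusted p was 0.0114 for Rpl13a, 0.0127 for Rpl27a, 0.0158 for Rpl15, 0.0204 for Rps3a1, 0.0218 for Rps4x, 0.023 for Rpl35a and 0.0311 for Rps27l by edgeR. It was 0.0321 for Rps3, 0.0379 for Rpl21, 0.0391 for Rpl34, 0.0448 for Rps27a, 0.0481 for Rpl26 and 0.0487 for Rpl31 by edgeR. Rpl13a peaked at ZT12.9 in SPF LKO and ZT22.3 in GF LKO, Rpl27a at ZT12.9 and ZT1.35, and Rpl15 at ZT12.3 and ZT0.372. The members share libraries and vary together, so these are not 13 separate observations, and the count was 0 without any of the 3 replicate numbers.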

How the results depend on the processing

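The median difference of the members was positive in every alternative fit of the 4 comparisons. On total counts the median of all genes moved from -0.01 to 0.10 and 0.01 to 0.18 for genotype in SPF and GF mice, and from -0.02 to -0.19 and -0.02 to -0.13 for microbial status in WT and LKO mice. Relative to all genes, the members' medians were 0.15, 0.25, 0.30 and 0.38 with either scaling. Counts on total counts were 56 higher for genotype in SPF mice, 73 higher and 0 lower for genotype in GF mice, 25 higher and 7 lower for microbial status in WT mice, and 4 lower in LKO mice. Without the 4 libraries that stand apart 1 member was lower in SPF LKO. Leaving out a replicate number, a ZT or a library gave 4 to 25 members higher and 0 to 1 lower for genotype in SPF mice, 29 to 59 and 0 to 1 in GF mice, 37 to 53 and 3 to 5 for microbial status in WT mice, and 45 to 62 and 0 to 3 in LKO mice.

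Deviations of libraries with the same number and ZT had median correlations of 0.01, -0.03, 0.00 and -0.04 in the 4 comparisons, with 3 to 6 of 18 pairs over 0.1. With a replicate block of ZT and number, 30, 61, 49 and 58 members were higher in the 4 comparisons, and the block of numbers left 1 rhythmic member in SPF WT in place of 2. The labels give the numbers only, and these correlations cannot decide whether some libraries of the same number share a batch. What a call lost under the block means was not tested.

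Rhythmic members in SPF WT numbered 1 with limma, 1 on total counts, 1 with ZT as 6 levels and 0 to 1 without a replicate number. In SPF LKO they numbered 1 on total counts, 0 with ZT as 6 levels and 0 to 4 without a number. In GF WT they numbered 5 with no filter, 0 with ZT as 6 levels and 0 to 9, and in GF LKO 2 to 8 without a number. Changed rhythms between GF LKO and GF WT numbered 1 with limma, 2 on total counts and 0 to 1 without a number. Between GF LKO and SPF LKO they numbered 3 on total counts, 0 with ZT as 6 levels, 7 without the libraries that stand apart and 0 without any number. The cause of these changes was not tested, except that leaving out a number removes a share of the mice.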
